A study of Mus musculus with 8 samples.

Results

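Limb and mesenchyme transcription factors were described across mouse C3H10T1/2 cells that carried different histone H3 transgenes. The 10 genes Lhx2, Lhx9, Osr1, Osr2, Prrx1, Prrx2, Twist1, Twist2, Msx1 and Tbx15 were taken by symbol from the 31276 genes of the expression table, and all 10 were found there and lay above the low-value filter used for testing.

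C3H10T1/2 is a multipotent mesenchymal line derived from C3H mouse embryos. RNA-seq was done on 8 lines at passage 10-15, each stably expressing a FLAG-HA-tagged histone H3 transgene, with 1 library per transgene. The transgenes were H3.3 K36M, H3.1 K36M, H3.3 K36I, H3.3 K36A, H3.3 K36L, H3.3 K36R, H3.1 K36R and H3.3 WT, where WT is the wild-type histone and the letter after 36 is the residue that replaces lysine 36. Histones with methionine or isoleucine here are known inhibitors of the enzymes that methylate H3K36, so the 3 lines with K36M or K36I were set against the other 5. All 8 lines carry a tagged histone, and no line without a transgene and no H3.1 WT line is among them. Nothing in the labels names separate cultures of one line, so p-values measure the spread between lines, part of which may be technical.

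Methylation of lysine 36 of histone H3 marks active chromatin and is known to limit the activity of Polycomb repressive complex 2, which methylates lysine 27 of the same histone. Genes of developmental transcription factors are among the best known Polycomb targets, and their promoters are often rich in CpG dinucleotides. In the limb bud these factors act in layers: Prrx1, Prrx2 and Twist1 are general to the mesenchyme, Lhx2 and Lhx9 respond to the signals of the overlying ectodermal ridge, Msx1 responds to BMP, and Osr1 and Osr2 mark connective tissue and joint-forming cells. Tbx15 is required for normal skeletal form.

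The libraries held 45448249 reads (H3.1 K36M) to 68020958 reads (H3.3 K36I). The mesenchymal label was met by its markers, with 8 of 8 above the filter and Col1a1 at 37646 normalised reads or more in every library. Their summed level was 552882 to 779026 normalised reads in the K36M and K36I libraries and 838405 to 1116132 in the others, and of the 8 the test called Fn1, lower by 1.01 on the log2 scale (adjusted p = 0.0167, limma). Of 7 leukocyte markers 1 was above the filter, with summed levels of 213 to 286 normalised reads in the K36M and K36I libraries and 147 to 182 in the others, and Ptprc was at or below 7.89. Of 7 epithelial markers 2 were above the filter, with summed levels of 724 to 1762 normalised reads in the K36M and K36I libraries and 563 to 7854 in the others, and Epcam was at 0 in 6 libraries. The 5 endothelial markers were all below the filter, summing to 14.5 to 41.0 normalised reads in the K36M and K36I libraries and 37.4 to 85.7 in the others. Of 5 neural markers 2 were above it, with sums of 750 to 2316 and 642 to 3710 in these groups, and Sox10 was at or below 3.72. Their part in the results below was not tested, and in bulk RNA fewer cells of a type and less RNA per cell cannot be told apart. Ribosomal precursor Rn45s took 3.11% of reads in H3.3 K36L and 5.24% in H3.3 K36A, against 1.66% to 2.19% in the other 6 libraries.

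The promoter sequences of 5 members are shown because these genes separated the K36M and K36I lines from the rest, and because they differ in how densely they hold CpG, written in capitals. Each run is the 250 bases upstream of a transcription start in RefSeq, 5′ to 3′ on the gene's strand, on build GRCm38.p6, for which 7 of the 10 members had an entry. The positions are chr2:38339031-38339280 (plus strand) for the first of the 2 Lhx2 starts, chr5:37824586-37824835 (minus) for Msx1, chr1:138842445-138842694 (minus) for Lhx9, chr12:33957421-33957670 (plus) for Twist1 and chr1:91801211-91801460 (plus) for Twist2.
Lhx2: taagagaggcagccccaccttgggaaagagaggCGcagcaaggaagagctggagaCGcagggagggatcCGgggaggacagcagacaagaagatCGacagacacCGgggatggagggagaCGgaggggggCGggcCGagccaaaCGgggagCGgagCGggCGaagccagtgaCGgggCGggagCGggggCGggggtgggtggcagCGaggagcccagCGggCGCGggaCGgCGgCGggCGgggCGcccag
Msx1: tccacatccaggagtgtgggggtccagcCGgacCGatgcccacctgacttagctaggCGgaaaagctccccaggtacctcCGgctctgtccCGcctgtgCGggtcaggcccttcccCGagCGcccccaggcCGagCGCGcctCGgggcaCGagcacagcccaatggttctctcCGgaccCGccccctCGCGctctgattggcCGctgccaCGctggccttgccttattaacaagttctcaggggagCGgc
Lhx9: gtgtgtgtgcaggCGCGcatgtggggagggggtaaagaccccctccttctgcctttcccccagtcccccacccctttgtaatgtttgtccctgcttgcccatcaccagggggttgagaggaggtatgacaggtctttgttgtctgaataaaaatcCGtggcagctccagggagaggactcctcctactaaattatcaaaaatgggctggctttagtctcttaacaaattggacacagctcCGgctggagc
Twist1: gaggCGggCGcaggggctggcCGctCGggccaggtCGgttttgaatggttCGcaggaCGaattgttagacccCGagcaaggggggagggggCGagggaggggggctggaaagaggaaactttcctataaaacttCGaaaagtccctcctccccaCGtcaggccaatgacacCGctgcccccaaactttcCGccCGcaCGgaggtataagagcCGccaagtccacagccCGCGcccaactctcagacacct
Twist2: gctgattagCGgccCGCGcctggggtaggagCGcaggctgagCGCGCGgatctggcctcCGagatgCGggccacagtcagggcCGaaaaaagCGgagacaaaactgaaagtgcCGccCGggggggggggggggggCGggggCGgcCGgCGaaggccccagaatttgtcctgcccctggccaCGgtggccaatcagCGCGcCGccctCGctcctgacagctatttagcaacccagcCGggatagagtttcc

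Lhx2 held 25 CpG in this window, Twist2 23, Prrx2 21, Msx1 20 and Twist1 18, against a median of 6 over all 32851 promoters of 27025 genes. Lhx9 and Prrx1 held 4 each, a number below which 37.8% of all promoters fall. The RefSeq starts used for Lhx9 and Prrx2 lie well inside these genes as GENCODE annotates them, so their counts are those of internal starts. By the same count 89.3% of promoters have fewer CpG than the Lhx2 window shown. Promoters above the median occurred both in genes that were lower in the K36M and K36I lines (Lhx2, Msx1) and in genes that were higher (Twist1, Twist2). The E-box CANNTG, the motif bound by Twist proteins and their partners, which reads the same on both strands, occurred once in the Lhx9 and once in the Msx1 window and in none of the windows of the other 5 members with an entry, against 66.2% of all promoters. The homeodomain core TAATTA, the same on both strands, occurred in the Prrx1 window alone, against 4.84% of all promoters.

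The members spanned a wide range of abundance. Per kilobase of exon (union of GENCODE M21 exons), Prrx1 and Prrx2 were the most abundant, with means of 2569 and 2618 normalised reads in the K36M and K36I lines and 2569 and 2504 in the others. Over the 8 libraries their ranges, 2176 to 3235 and 1902 to 3582, overlap. The order of the other genes differed between the groups of lines. In the K36M and K36I lines Twist1 followed at 832, then Tbx15 at 356, Twist2 at 255, Osr1 at 159, Msx1 at 62.4, Osr2 at 38.2, Lhx2 at 4.65 and Lhx9 at 0.358. In the other lines Twist1 at 581 was followed by Osr1 at 548, Tbx15 at 473, Msx1 at 163, Twist2 at 93.1, Lhx2 at 34.8, Lhx9 at 14.2 and Osr2 at 9.14. Over all 8 libraries the ranges of Twist1 (532 to 888), Tbx15 (317 to 567) and Osr1 (91.6 to 995) overlap, as do those of Twist2 (59.8 to 259) and Msx1 (51.6 to 213), and those of Lhx2 (1.55 to 40.8), Osr2 (6.64 to 52.7) and Lhx9 (0 to 25.0). All later levels are normalised reads per gene, that is reads divided by the size factor of the library, and later log2 differences are on the authors' variance-stabilised scale, which understates the change of genes with few reads.

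**Figure D1:**
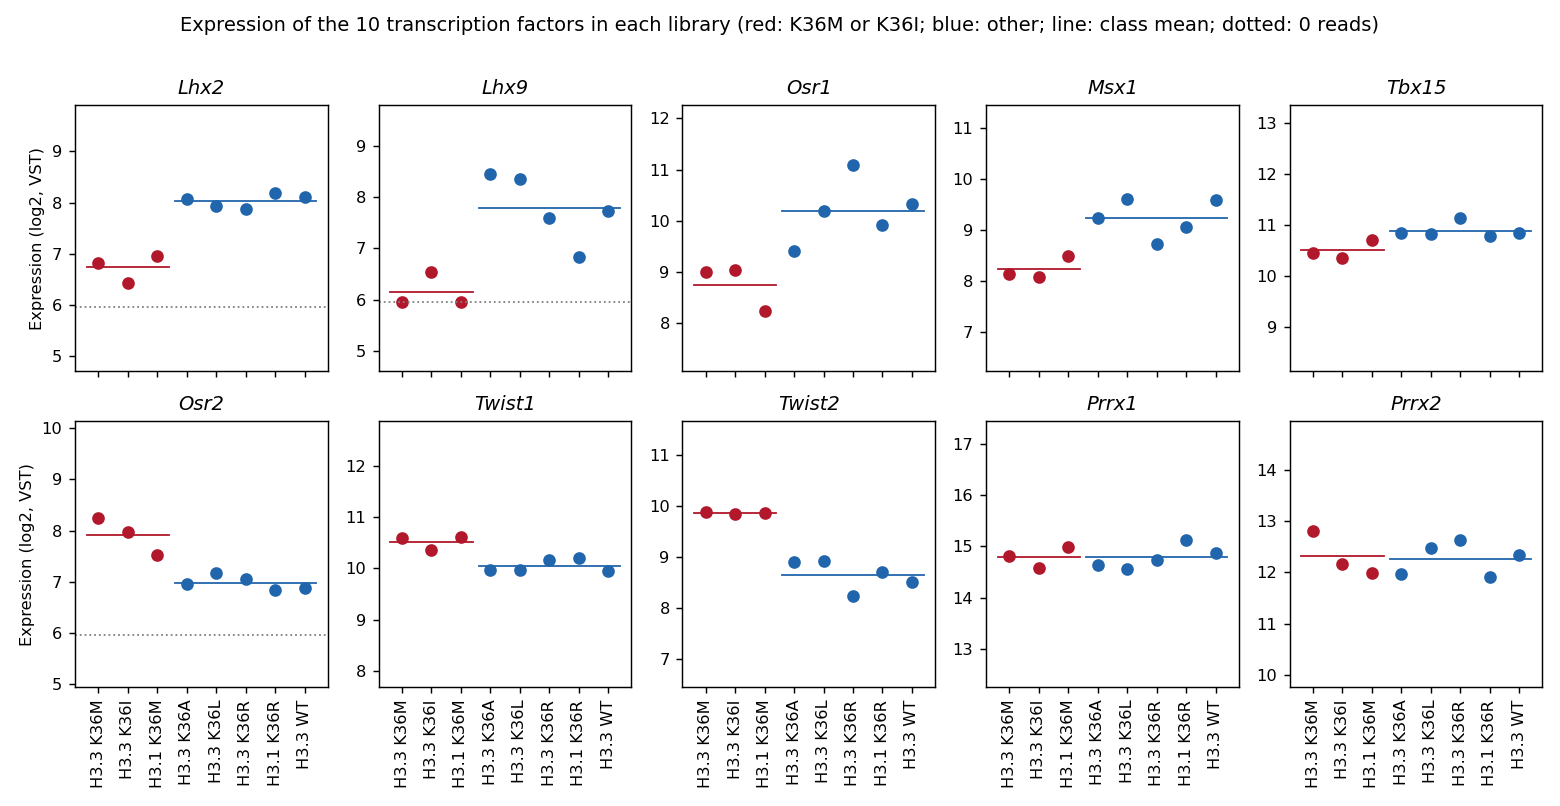
Expression of the 10 genes in each of the 8 libraries on the variance-stabilised log2 scale, with 1 point per library. The K36M and K36I libraries are left of the other 5, and this scale understates the change of genes with few reads. Lhx2, Lhx9, Osr1, Msx1 and Tbx15 lie lower in all 3 K36M and K36I libraries, Osr2, Twist1 and Twist2 lie higher in all 3, and Prrx1 and Prrx2 overlap.

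The first comparison asked how the factors differed between the 3 K36M and K36I lines and the 5 other lines. Of the 10 genes, 7 passed the test: Lhx2, Lhx9, Osr1 and Msx1 fell and Osr2, Twist1 and Twist2 rose in the K36M and K36I lines. Over all 14215 genes tested, 1887 passed, or 13.3%, with 6.45% higher and 6.82% lower. The median difference of the 10 genes was -0.19 (median size 0.97), against -0.01 (median size 0.16) over all genes tested. The values of the 3 lines did not overlap those of the other 5 for 8 of the 10 genes, against 21.5% of all genes tested. Lhx2 and Lhx9 lay above the low-value filter only through the 5 other lines, so their part in these counts is not support. With the filter at 2 above the lowest value, Lhx2, Lhx9 and Osr2 were not tested. Then 2 members fell and 2 rose, against 868 and 704 of 12040 genes. Of the 1887 calls 48.6% were higher, and 58.9% were when library medians were set equal, under which the members' calls stayed at 3 higher and 4 lower. The members' pattern across lines was seen in earlier results of the same libraries before these genes were chosen, so the counts describe the genes and are not independent support.

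The LIM-homeodomain factors Lhx2 and Lhx9 overlap in function in the outgrowth of the mouse limb bud and had the fewest reads of the 10 genes in the K36M and K36I lines. Lhx2 (chr2:38339281-38369733, plus strand, GRCm38) had 22.9 normalised reads in H3.3 K36M, 6.81 in H3.3 K36I and 31.5 in H3.1 K36M, against 158 in H3.3 K36A, 135 in H3.3 K36L, 126 in H3.3 K36R, 179 in H3.1 K36R and 165 in H3.3 WT. The 3 low libraries lie well below the 5 high ones, which differ little among themselves, and nothing overlaps. Lhx2 averaged 20.4 ± 12.6 normalised reads in the K36M and K36I lines (SD, n = 3) and 153 ± 21.8 in the others (SD, n = 5), a ratio of 7.49. It fell by 1.29 (log2, SE 0.14, adjusted p = 0.000984, limma with Benjamini-Hochberg adjustment).

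Lhx9 (chr1:138825186-138848577, minus strand) had 0 reads in H3.3 K36M, 10.2 normalised reads in H3.3 K36I and 0 reads in H3.1 K36M, against 238 in H3.3 K36A, 214 in H3.3 K36L, 90.2 in H3.3 K36R, 24.1 in H3.1 K36R and 108 in H3.3 WT. The groups do not overlap, but the 5 higher libraries spread widely, with H3.1 K36R nearest to the K36M and K36I libraries. A count of 0 allows up to 2.86 normalised reads in H3.3 K36M and 3.94 in H3.1 K36M (3 reads per library, counting error only). With the H3.3 WT value taken as exact, Lhx9 was at least 37.7-fold and at least 27.3-fold lower in these lines than in H3.3 WT. It fell by 1.65 (log2, SE 0.35, adjusted p = 0.0176, limma), and the adjusted p was 0.0744 without H3.3 K36M. Lhx2 and Lhx9 passed the low-value filter through the 5 other libraries, since their means in the K36M and K36I lines were 0.78 and 0.19 above the lowest value of the table, against a filter of 1.

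Osr1 and Osr2, zinc-finger factors related to odd-skipped, moved in opposite directions. Osr1, a marker of connective tissue progenitors that is also needed for heart and kidney development, lies at chr12:9570116-9581500 on the plus strand. It had 392 normalised reads in H3.3 K36M, 405 in H3.3 K36I and 189 in H3.1 K36M, against 561 in H3.3 K36A, 1042 in H3.3 K36L, 2056 in H3.3 K36R, 843 in H3.1 K36R and 1160 in H3.3 WT. All 3 K36M and K36I libraries are below the other 5, among which H3.3 K36A is low and H3.3 K36R high. Osr1 averaged 329 ± 121 in the K36M and K36I lines (n = 3) and 1132 ± 564 in the others (n = 5), and fell by 1.43 (log2, SE 0.35, adjusted p = 0.0296, limma). This call was the least stable of the 7: leaving out a single line gave adjusted p-values up to 0.0768 and ended it in 5 of 8 cases, namely without H3.3 K36M (0.0708), H3.3 K36I (0.0574), H3.1 K36M (0.0768), H3.3 K36L (0.0609) or H3.3 WT (0.0717). It also did not pass among the H3.3 lines alone (0.0754).

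Osr2 (chr15:35296098-35303305, plus strand), required for growth of the secondary palate in mice, had 191 normalised reads in H3.3 K36M, 143 in H3.3 K36I and 81.5 in H3.1 K36M, against 30.7 in H3.3 K36A, 46.8 in H3.3 K36L, 38.0 in H3.3 K36R, 24.1 in H3.1 K36R and 26.0 in H3.3 WT. The lowest of the 3 K36M and K36I libraries, H3.1 K36M, was still above the highest of the other 5. Osr2 averaged 138 ± 54.8 in the K36M and K36I lines (n = 3) and 33.1 ± 9.34 in the others (n = 5), a ratio of 4.18, and rose by 0.94 (log2, SE 0.16, adjusted p = 0.00768, limma).

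Twist1 and Twist2 are basic helix-loop-helix factors that hold mesenchymal progenitors in an undifferentiated state, and Twist2, also called Dermo1, is prominent in dermis. Twist2 (chr1:91801461-91848028, plus strand) had 821 normalised reads in H3.3 K36M, 798 in H3.3 K36I and 811 in H3.1 K36M, against 360 in H3.3 K36A, 368 in H3.3 K36L, 190 in H3.3 K36R, 305 in H3.1 K36R and 254 in H3.3 WT. The 3 K36M and K36I libraries nearly coincide and lie far above the others. Twist2 averaged 810 ± 11.4 in the K36M and K36I lines (n = 3) and 295 ± 74.9 in the others (n = 5), a ratio of 2.74, and rose by 1.20 (log2, SE 0.16, adjusted p = 0.00233, limma). The antisense gene Gm29100 overlaps 46.5% of the Twist2 exon bases on the other strand, and since the sources used here do not say whether counting used strand, its reads cannot be told apart from those of Twist2.

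Twist1 (chr12:33957671-33959829, plus strand), needed for limb bud outgrowth and for mesoderm of the head, had 1425 normalised reads in H3.3 K36M, 1192 in H3.3 K36I and 1446 in H3.1 K36M, against 881 in H3.3 K36A, 889 in H3.3 K36L, 1027 in H3.3 K36R, 1065 in H3.1 K36R and 865 in H3.3 WT. The difference was smaller than that of Twist2, and H3.3 K36I came close to H3.1 K36R without overlapping it. Twist1 averaged 1354 ± 141 in the K36M and K36I lines (n = 3) and 945 ± 93.3 in the others (n = 5), and rose by 0.47 (log2, SE 0.10, adjusted p = 0.0189, limma). The adjusted p was 0.0826 without H3.3 K36M, 0.0516 without H3.3 WT and 0.102 without both H3.3 K36L and H3.3 K36A.

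Msx1, a homeodomain repressor induced by BMP that keeps mesenchyme of limb bud, palate and tooth from differentiating, lies at chr5:37820485-37824583 on the minus strand. It had 172 normalised reads in H3.3 K36M, 160 in H3.3 K36I and 248 in H3.1 K36M, against 485 in H3.3 K36A, 660 in H3.3 K36L, 310 in H3.3 K36R, 419 in H3.1 K36R and 647 in H3.3 WT. The groups do not overlap, and H3.3 K36R is the lowest of the other 5. Msx1 averaged 193 ± 48.0 in the K36M and K36I lines (n = 3) and 504 ± 150 in the others (n = 5), a ratio of 2.61, and fell by 1.01 (log2, SE 0.21, adjusted p = 0.0169, limma). The adjusted p was 0.0708 without H3.3 K36M, 0.0646 without H3.3 K36I and 0.0753 without both H3.3 K36L and H3.3 K36A. The antisense RNA Msx1os lies inside Msx1 and had 145 normalised reads in H3.3 K36I, 164 in H3.3 K36M and 205 in H3.1 K36M, against 395, 529, 252, 350 and 525 in H3.3 K36A, H3.3 K36L, H3.3 K36R, H3.1 K36R and H3.3 WT. Without strand the reads of the 2 genes cannot be told apart.

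Tbx15 (chr3:99240381-99354259, plus strand), a T-box factor, had 1274 normalised reads in H3.3 K36M, 1187 in H3.3 K36I and 1546 in H3.1 K36M, against 1708 in H3.3 K36A, 1683 in H3.3 K36L, 2123 in H3.3 K36R, 1650 in H3.1 K36R and 1705 in H3.3 WT. The groups do not overlap, though H3.1 K36M lies close to H3.1 K36R. The difference of -0.38 (95% interval -0.64 to -0.13, adjusted p = 0.0574, limma) did not pass the test, and the adjusted p was 0.0419 with histone as a term, 0.0233 among the H3.3 lines alone, 0.0245 without H3.1 K36M and 0.00592 with array weights.

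Prrx1 and Prrx2, paired-related homeobox factors with overlapping roles in limb and face mesenchyme, were the members with overlapping groups. Prrx1 (chr1:163245119-163313710, minus strand) had 28554 normalised reads in H3.3 K36M, 24208 in H3.3 K36I and 32524 in H3.1 K36M, against 25292 in H3.3 K36A, 24076 in H3.3 K36L, 27120 in H3.3 K36R, 35800 in H3.1 K36R and 29879 in H3.3 WT. Prrx2 (chr2:30834972-30881251, plus strand) had 7024 in H3.3 K36M, 4450 in H3.3 K36I and 3928 in H3.1 K36M, against 3908 in H3.3 K36A, 5612 in H3.3 K36L, 6214 in H3.3 K36R, 3729 in H3.1 K36R and 5088 in H3.3 WT. For Prrx1 the 2 H3.1 libraries were the highest, and for Prrx2 the 2 H3.1 libraries were among the 3 lowest. The differences were 0.00 for Prrx1 (95% interval -0.33 to 0.34, adjusted p = 0.990, limma) and 0.05 for Prrx2 (95% interval -0.46 to 0.56, adjusted p = 0.925, limma).

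**Figure D2:**
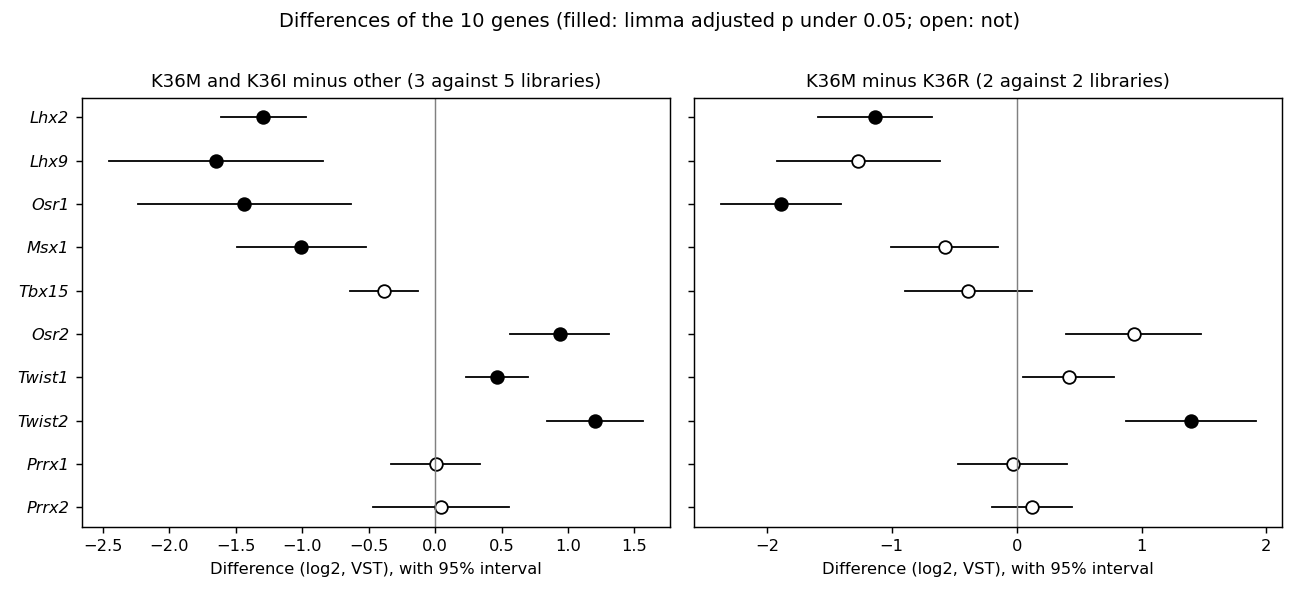
Log2 differences on the variance-stabilised scale with their 95% intervals for the 10 genes in the fitted comparisons. The comparisons are K36M and K36I against the others, and K36M against K36R. In both, the intervals of Lhx2, Lhx9, Osr1 and Msx1 lie below 0 and those of Osr2, Twist1 and Twist2 above 0. That of Tbx15 lies below 0 in the first and includes 0 in the second, while those of Prrx1 and Prrx2 include 0 in both. The intervals are not adjusted for the number of genes, and in the second comparison only Lhx2, Osr1 and Twist2 passed the adjusted test.

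The balance within pairs of related genes differed between the lines. Osr2 made up 32.7% of the reads of Osr1 and Osr2 together in H3.3 K36M (95% Wilson interval 29.1 to 36.6), 26.1% in H3.3 K36I (22.8 to 29.6) and 30.1% in H3.1 K36M (24.2 to 36.7). In the other lines it made up 5.18% in H3.3 K36A (3.69 to 7.22), 4.30% in H3.3 K36L (3.26 to 5.65), 1.81% in H3.3 K36R (1.34 to 2.46), 2.77% in H3.1 K36R (1.84 to 4.17) and 2.19% in H3.3 WT (1.52 to 3.15). These intervals cover counting error only, and the 3 K36M and K36I libraries stand above the other 5 with a wide gap. Twist2 made up 40.1% of the reads of Twist1 and Twist2 in H3.3 K36I, 36.6% in H3.3 K36M and 35.9% in H3.1 K36M, against 29.0%, 29.3%, 15.6%, 22.3% and 22.7% in H3.3 K36A, H3.3 K36L, H3.3 K36R, H3.1 K36R and H3.3 WT.

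The share of Prrx2 in the reads of Prrx1 and Prrx2 was 19.7% in H3.3 K36M, 15.5% in H3.3 K36I and 10.8% in H3.1 K36M, against 13.4% in H3.3 K36A, 18.9% in H3.3 K36L, 18.6% in H3.3 K36R, 9.43% in H3.1 K36R and 14.6% in H3.3 WT, so the groups overlap and the 2 H3.1 libraries are the lowest. Lhx9 made up 0 of 24 reads of Lhx2 and Lhx9 in both K36M libraries, which allows a share of up to 12.5%, and 12 of 20 reads in H3.3 K36I. In the other lines its share was 60.1% in H3.3 K36A, 61.3% in H3.3 K36L, 41.7% in H3.3 K36R, 11.8% in H3.1 K36R and 39.5% in H3.3 WT. Shares were computed on reads not corrected for gene length and were not tested.

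**Figure D3:**
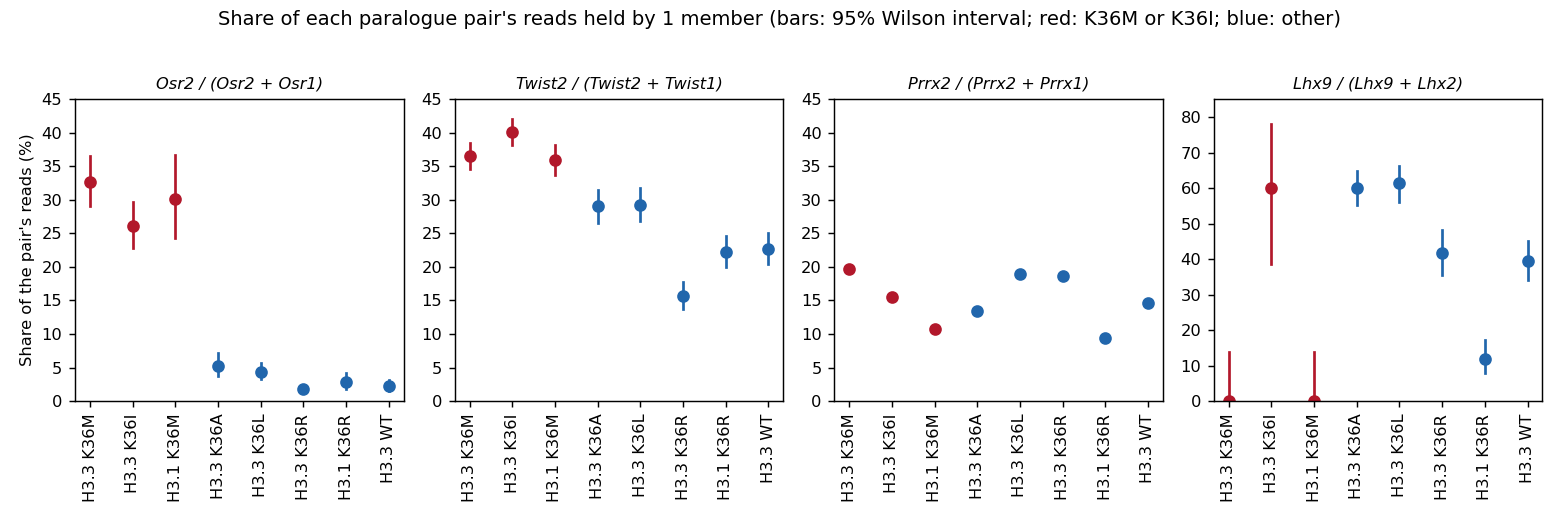
Share of the reads of each related pair taken by 1 member, in percent, by library, with 95% Wilson intervals that cover counting error only. The Osr2 share is 26.1% to 32.7% in the K36M and K36I libraries and 1.81% to 5.18% in the other 5, while the Prrx2 share overlaps between them.

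K36M and K36R are the substitutions present on both histones, and arginine differs from methionine in keeping the positive charge of lysine. Over both histones, Osr1 fell by 1.89 on the log2 scale in the K36M lines (SE 0.18, adjusted p = 0.0185), Lhx2 fell by 1.14 (SE 0.17, adjusted p = 0.0440) and Twist2 rose by 1.396 (SE 0.20, adjusted p = 0.0378, all limma with a histone term). These 1 higher and 2 lower of 10 genes compare with 2.15% of all genes tested higher and 2.34% lower, or 4.5% in all (639 genes). Of them, Lhx2 lay above the low-value filter only through the lines without K36M or K36I. Lhx9 (-1.27, adjusted p = 0.0757), Osr2 (0.94, adjusted p = 0.0954), Msx1 (-0.58, adjusted p = 0.164), Twist1 (0.42, adjusted p = 0.218) and Tbx15 (-0.39, adjusted p = 0.396) did not pass. Lhx9 passed on the scale of log2(normalised reads + 1), at -5.58 (adjusted p = 0.0489), which gave 3 members lower. No member passed without the histone term or without the low-value filter. Leaving out 1 library also required dropping the histone term, since 3 libraries leave no spread to estimate beside it, and no member passed in those 4 fits.

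Within each histone, the values of K36M and K36R show the same order for these genes. Osr1 was 5.24-fold lower in H3.3 K36M than in H3.3 K36R and 4.45-fold lower in H3.1 K36M than in H3.1 K36R. Lhx2 was 5.51-fold lower in H3.3 K36M and 5.68-fold lower in H3.1 K36M. Twist2 was 4.32-fold higher in H3.3 K36M and 2.66-fold higher in H3.1 K36M, each set against K36R on the same histone. With the K36R values taken as exact, Lhx9 was at least 31.5-fold lower in H3.3 K36M and at least 6.10-fold lower in H3.1 K36M. The second bound rests on 22 reads in H3.1 K36R, whose own counting error it leaves out. Counting differences of at least 1 on the log2 scale, H3.3 K36M had 2 members higher and 3 lower than H3.3 K36R, against 3.4% and 4.45% of all genes tested. H3.1 K36M had 1 higher (Twist2) and 2 lower (Lhx2 and Osr1) than H3.1 K36R, against 3.9% and 3.12%. Lhx2 and Lhx9 lay above the low-value filter only through the lines without K36M or K36I. With 1 library a side these folds have no replicate check.

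Between histones, 0 of the 10 genes passed the test of the 2 H3.1 lines against the 6 H3.3 lines, with class as a term, against 11% of all genes tested in limma (5.65% higher and 5.37% lower). At an unadjusted p under 0.05 there were 4 members, against 30.4% of all genes tested. Prrx1 was 0.37 higher on the log2 scale in H3.1 lines (adjusted p = 0.0584), Lhx9 0.79 lower (adjusted p = 0.133), Osr2 0.36 lower (adjusted p = 0.139) and Prrx2 0.47 lower (adjusted p = 0.161). Whether the class difference itself differed between the histones was tested by the interaction term, which passed for 0 of the 10 genes and for 0 of 14215 genes in limma, while 0 members and 1582 genes (11.1%) had an unadjusted p under 0.05. The largest interactions among the members were 0.91 for Lhx9 (95% interval -0.43 to 2.25, adjusted p = 0.603) and 0.61 for Msx1 (95% interval -0.51 to 1.74, adjusted p = 0.679).

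Each mutant was also set against H3.3 WT with 1 library a side, so these differences have no test, and all share the same WT library. Counting genes that differed by at least 1 on the log2 scale, H3.3 K36M had 4 members lower and 2 higher, against 4.41% and 4.28% of all genes tested. H3.3 K36I had 4 lower and 2 higher (4.17% and 3.45% of all genes), and H3.1 K36M had 4 lower and 1 higher (4.23% and 6.08%). The members counted were Lhx2, Lhx9, Osr1 and Msx1 on the lower side and Twist2 and Osr2 on the higher side, except that Osr2 was 0.66 higher in H3.1 K36M. Of these, Lhx2 and Lhx9 lay above the low-value filter only through the lines without K36M or K36I. The largest difference from WT among the members in H3.3 K36I was that of Lhx2, 6.81 against 165 normalised reads.

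On the variance-stabilised log2 scale, none of the 10 genes differed from H3.3 WT by 1 or more in the other 4 mutants. Of all genes tested, 0.521% were higher and 0.507% lower by as much in H3.3 K36L, 0.76% higher and 1.32% lower in H3.3 K36A, 1.06% higher and 0.696% lower in H3.3 K36R, and 2.08% higher and 1.25% lower in H3.1 K36R. Smaller differences occurred. Since this scale understates the change of genes with few reads, their folds in reads are given as well. Lhx9 was 0.61 higher in H3.3 K36L (1.99-fold) and 0.71 higher in H3.3 K36A (2.20-fold), at 214 and 238 normalised reads, against 108 in WT. In H3.1 K36R, Lhx9 was 0.90 lower (4.48-fold) at 24.1. Osr1 was 0.91 lower in H3.3 K36A (2.07-fold) and 0.77 higher in H3.3 K36R (1.77-fold), and Msx1 was 0.85 lower in H3.3 K36R (2.09-fold). Lhx2 differed from WT by -0.24 to 0.07 in these 4 lines.

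**Figure D4:**
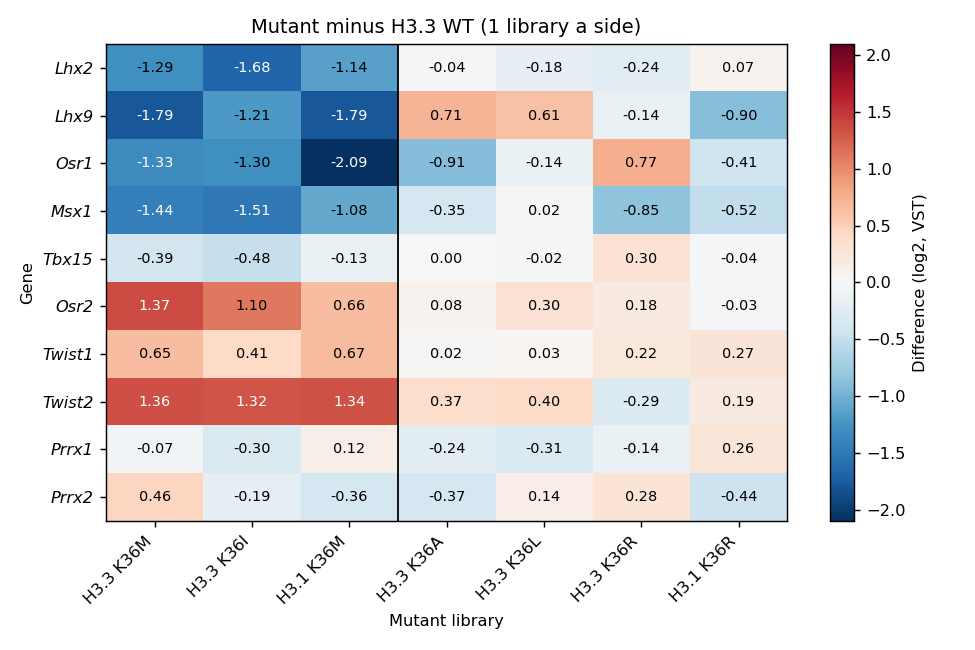
Difference of each mutant library from H3.3 WT on the variance-stabilised log2 scale for the 10 genes, with 1 library a side and no test. The libraries of both K36M lines and of H3.3 K36I hold the differences past 1, and in the other 4 mutants the largest are those of Osr1 in H3.3 K36A (-0.91) and Lhx9 in H3.1 K36R (-0.90).

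None of the 10 genes was higher or lower by 1 or more on the log2 scale in H3.3 K36M than in H3.3 K36I, against 0.584% of all genes tested higher and 0.577% lower. Nor was any in H3.1 K36M than in H3.3 K36M, against 3.5% higher and 1.52% lower. The difference of H3.3 K36M from H3.3 K36I was 0.04 in Twist2, -0.04 in Osr1 and 0.07 in Msx1. On this scale the largest among the members was 0.64 in Prrx2, or 1.58-fold in reads. The folds of Lhx2 and Lhx9, which had few reads, were larger. Lhx2 had 22.9 normalised reads in H3.3 K36M and 6.81 in H3.3 K36I (3.4-fold). Lhx9 had 0 and 10.2, at least 3.57-fold if the 12 reads of H3.3 K36I are taken as exact. H3.1 K36M was lower than H3.3 K36M by 0.76 in Osr1 (2.07-fold in reads), 0.71 in Osr2 (2.34-fold) and 0.82 in Prrx2 (1.79-fold). It differed by 0.02 in Twist1 and by -0.02 in Twist2. Each of these is a difference between single libraries.

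Other genes of the same programme were described from lists chosen with earlier results of these libraries known. Of 53 further limb and mesenchyme transcription factors, 28 were above the filter, 1 rose, 4 fell and 23 did not pass. Their median difference was -0.11. Among all genes tested 6.45% rose and 6.82% fell, and no list was tested as a set. Sall1, a spalt-like zinc-finger factor, fell by 1.76 on the log2 scale (adjusted p = 0.000298, limma) to a mean of 49.4 normalised reads in the K36M and K36I lines, against 373 in the others. Pax3, a paired-box factor of muscle progenitors and neural crest, fell by 1.13 (adjusted p = 0.0268), Zeb2 by 1.05 (adjusted p = 0.0236) and Snai1 by 0.82 (adjusted p = 0.00924). Zeb2 and Snai1 are repressors known from epithelial to mesenchymal transition. Their relatives Zeb1 (0.38, adjusted p = 0.218, limma) and Snai2 (-0.66, adjusted p = 0.165) did not pass. Scx, the bHLH factor of tendon progenitors, rose by 1.36 (adjusted p = 0.0149) to 1801 normalised reads in the K36M and K36I lines, against 636 in the others.

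Of 21 partners and inhibitors of LIM-homeodomain and bHLH factors, 18 were above the filter, 1 rose and 3 fell, with a median of -0.12. This compares with 6.45% higher and 6.82% lower among all genes tested. Id3 fell by 1.24 (adjusted p = 0.00194, limma) and Id1 by 0.63 (adjusted p = 0.00466). Id proteins bind the E-protein partners of bHLH factors such as Twist1 and keep them from DNA. Lmo4, a LIM-only protein that competes for the LIM cofactor Ldb1, fell by 0.85 (adjusted p = 0.00284), and the Groucho-type corepressor Tle4 rose by 0.64 (adjusted p = 0.0217). Ldb1 itself differed by 0.02 (adjusted p = 0.939) and the E protein Tcf3 by -0.02 (adjusted p = 0.947).

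Of 30 limb bud signals, receptors and feedback genes, 25 were above the filter, 4 rose and 4 fell, with a median of -0.04. The shares over all genes tested were 6.45% higher and 6.82% lower. Grem1, the BMP antagonist of the loop between mesenchyme and ectodermal ridge, rose by 2.69 (adjusted p = 0.00521, limma) to 10613 normalised reads in the K36M and K36I lines, against 1544 in the others. The FGF feedback phosphatase Dusp4 rose by 2.70 (adjusted p = 0.00200), and the FGF target Etv4 by 1.32 (adjusted p = 0.00609) and Spred2 by 0.36 (adjusted p = 0.0362). Their relatives in the list did not pass (adjusted p of 0.0697 or more, limma). These were Spry1 (1.11), Etv1 (0.39), Dusp6 (0.25), Etv5 (0.22), Spred3 (0.21), Spry2 (-0.04), Spred1 (-0.26) and Spry4 (-0.33). Cyp26b1, which degrades retinoic acid in the distal limb, fell by 2.93 (adjusted p = 0.00233) to 185 normalised reads in the K36M and K36I lines, against 2146 in the others. The receptors Fgfr3 and Bmpr1a fell by 2.07 (adjusted p = 0.0299) and 0.42 (adjusted p = 0.00421), and Fgf2 fell by 0.63 (adjusted p = 0.0235).

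Of 19 other relatives of the members, 5 were above the filter and 0 passed in limma, against 13.3% of all genes tested. At an unadjusted p under 0.05 there was 1, against 28.3% of all genes tested. The median difference of the 5 was 0.08. Lhx6 had 376 normalised reads on average in the K36M and K36I lines and 200 in the others (0.67 on the log2 scale, adjusted p = 0.0896), and Isl2 differed by -0.17 (adjusted p = 0.587).

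**Figure D5:**
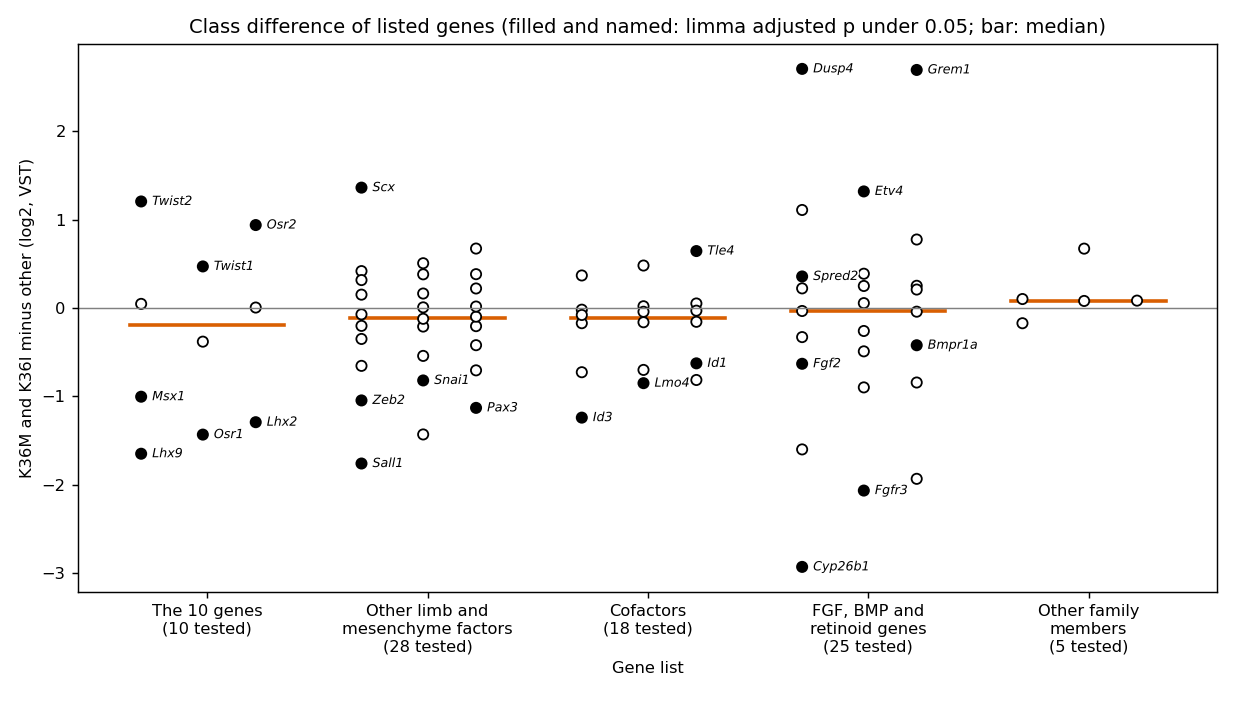
Log2 difference between the K36M and K36I libraries and the other 5 for every gene above the filter in the 10 members and the 4 further lists, with 1 point per gene and called genes marked. Called genes lie on both sides of 0 in the members and in 3 of the lists, and the medians of the 4 further lists lie between -0.12 and 0.08.

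The nearest protein-coding genes on each side of the 10 loci were 20 genes, of which 16 were above the filter. Against 13.3% of all genes tested, 1 of these 16 passed. This was Cytl1, 80.7 kb from Msx1, a secreted factor of cartilage and mesenchyme, which fell by 4.02 (log2, SE 0.75, adjusted p = 0.00965, limma) to 3.61 normalised reads in the K36M and K36I lines, against 1608 in the others, through which alone it lay above the filter. The other neighbour of Msx1, Stx18, differed by -0.24 (adjusted p = 0.0843). Around Osr2, Stk3 differed by 0.40 (adjusted p = 0.144) and Vps13b by -0.08 (adjusted p = 0.840), and around Twist2, Asb1 and Hdac4 differed by -0.01 and 0.05 (adjusted p = 0.959 and 0.905).

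The genes whose pattern over the 8 libraries was most like that of each member were searched among 11990 named genes above the filter, by Pearson's r on the deposited scale, as a measure of likeness over libraries that share 2 classes. Nearest to Lhx2 was Ephb3 (r = 0.993), to Lhx9 Zfp385a (r = 0.978), to Osr1 the limb homeobox gene Dlx5 (r = 0.984), to Osr2 Maoa (r = 0.991), to Twist1 Ctsz (r = 0.995) and to Twist2 Mlkl (r = 0.996). Nearest to Msx1 was its own antisense Msx1os (r = 0.998), followed by Glp2r (r = 0.973). For Tbx15 it was Lin7c (r = 0.987), for Prrx1 Rsph10b (r = 0.960) and for Prrx2 Mrps18a (r = 0.915). Lhx2 had 357 genes with r over 0.9 and Prrx2 had 5.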

How the data were processed

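RNA-seq libraries of 8 C3H10T1/2 lines were made from Trizol-extracted total RNA with a TruSeq protocol, per the labels. Reads were processed with STAR 2.3.0e, featureCounts 1.4.4, Trimmomatic 0.32 and DESeq2 against mouse build mm10, per the submitters' processing notes, which give no order. Settings, annotation and use of strand are unknown (not given in the sources used here). Deposited was 1 table of 31276 genes as log2 values, which the authors made by scaling reads with a size factor for each library and applying a variance-stabilising transformation, without regard to gene length. A gene with 0 reads has the value 5.95.

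Undoing the transformation in its parametric form gave whole reads for 100% of the values (within 0.001 reads), and depths of 45448249 to 68020958 reads per library. The limit of 3 reads allowed by a count of 0 equals 2.55 to 3.94 normalised reads. The tests covered the 14215 genes whose mean log2 value lay 1 or more above that of 0 reads, which is about 31.0 normalised reads. They were two-sided and run in limma 3.58.1 (R 4.3.3, trend on intensity), with p-values adjusted by Benjamini-Hochberg over all of these genes and a threshold of 0.05. The class comparison had no covariate, K36M against K36R had a histone term, H3.1 against H3.3 a class term. The scripts were checked on simulated data. Differences in processing between lines would enter the values, since each transgene has 1 library.

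Members, classes and gene lists were chosen with earlier results of these data known. All members were named, up to 4 called genes per list by size, the nearest coding neighbours and the genes of highest r. Snai1, Etv4, Spred2, Fgf2, Bmpr1a, Ldb1 and Tcf3 were named after their values were seen, and so were the neighbours singled out. The same holds for the markers Krt14 and Tubb3, and for Zeb1, Snai2, Etv1, Etv5, Dusp6, Spry1, Spry2, Spry4, Spred1 and Spred3. Gene positions are those of GENCODE M21 (GRCm38, the same assembly as mm10), and promoters those of RefSeq on GRCm38.p6. Alternatives covered the filter, scaling, pseudocount of 1, trend, weights, covariates and each library left out, and, chosen after seeing the data, limma voom on the recovered reads and leaving out H3.3 K36A and H3.3 K36L together. The marker Adgre1 was not analysed here, and 1 gene of the list of limb factors is not reported here.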

Additional observations from a re-analysis of the deposited data

Results flagged for a closer look

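Among the 5 lines without K36M or K36I, H3.3 K36R stood apart from the others in Tbx15. It had 2123 normalised reads, against 1708 in H3.3 K36A, 1683 in H3.3 K36L, 1650 in H3.1 K36R and 1705 in H3.3 WT. The gap to the nearest of the other 4 was 0.864 of the whole range of the 5. The same gap was computed at both ends for all 10 genes, and chance takes it past the limit used, 0.71, in about 1 of 20 groups. In the other 9 genes the largest such gap was 0.473, for Lhx9 in H3.1 K36R.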

How the results depend on the processing

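The labels carry no replicate numbers, so lines were paired only by histone, through the histone term of K36M against K36R.

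In the comparison of K36M and K36I lines with the others, the calls of Lhx2 (17 of 17 alternatives that could be fitted), Osr2 (17 of 17) and Twist2 (18 of 18) were kept, with differences of -1.41 to -1.14, 0.77 to 1.14 and 1.10 to 1.37 on the deposited scale. On the scales of log2(normalised reads + 1) and voom, Lhx2 was -3.06 and -3.14, Osr2 1.99 and 2.07, and Twist2 1.49 and 1.52. The count of members that fell was 4. It was 2 with the filter at 2 above the lowest value, where Lhx2, Lhx9 and Osr2 were not tested, and 1 to 4 when single libraries were left out, with 1 without H3.3 K36M and 2 without H3.3 K36I. The count that rose was 2 to 3 when single libraries were left out. Osr1 had an adjusted p of 0.0624 with limma voom on the recovered reads and 0.0754 in H3.3 libraries only. In K36M against K36R, members that fell (2) and rose (1) came to 0 without the histone term, to 0 without the filter and to 0 in each fit that left out 1 library and, with it, the histone term, where the lone library of a group is assumed to vary like the other group.

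The sign changed in genes that had not passed. Prrx1 was -0.046 with histone as a covariate, -0.012 in H3.3 libraries only, -0.12 without both H3.3 K36A and H3.3 K36L and -0.10 to 0.11 when single libraries were left out, where Prrx2 was -0.20 to 0.21. In K36M against K36R, Prrx1 was 0.019 with medians set equal, and fits without 1 library and without the histone term gave -0.23 to 0.17 for Prrx1 (0.0615 without H3.3 K36M, 0.17 without H3.1 K36R) and -0.29 to 0.53 for Prrx2 (-0.29 and -0.236 without the same libraries). In H3.1 against H3.3, Msx1 was -0.11 without the class term, and leaving out single libraries gave -0.22 to 0.39 for Msx1, -0.033 to 0.088 for Twist2 and -0.11 to 0.30 for Tbx15.

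Over all genes the class comparison called 1887 genes, against 1021 without H3.3 K36M, 1211 without H3.3 WT, 1245 without H3.3 K36I, 1171 without both H3.3 K36A and H3.3 K36L, 2959 with histone as a covariate and 4074 with array weights. Of the calls 48.6% were higher, against 60.9% without the filter. K36M against K36R called 639 genes, against 222 without the histone term and 0 without the filter. Without that term and 1 library it called 347 (without H3.3 K36M), 471 (without H3.1 K36M) and 0 (without H3.3 K36R or H3.1 K36R). H3.1 against H3.3 called 1567 genes, against 432 without the class term and 183 without H3.1 K36M, and the interaction called 0, against 798 without the filter. With 1 library per transgene, the tests cannot separate a substitution from its line, and differences of Lhx2, Lhx9 and Osr2 rest on 0 to 248 reads per library.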
